A study of Mus musculus with 4 samples.

Results

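The respiratory chain genes are the 102 rows, of 31053 in each count matrix, whose symbol begins with mt-, Nduf, Uqcr, Atp5, Cox4, Cox5, Cox6, Cox7 or Cox8. They carry 101 symbols, because *Atp5o* stands on 2 rows, one of which (*ENSMUSG00000116933*) held only 2 UMIs in all libraries. A UMI is the molecular tag that lets each captured RNA molecule be counted once. Of the rows, 13 are the protein-coding genes of the mitochondrial genome (mt genes) and 89 are nuclear genes. By symbol, the nuclear rows hold 38 genes of complex I, 8 complex I assembly factors (Ndufaf), 8 genes of complex III, 18 of complex IV and 17 of the ATP synthase. The mt genes add 7 subunits of complex I (mt-Nd), 1 of complex III (*mt-Cytb*), 3 of complex IV (mt-Co) and 2 of the ATP synthase (mt-Atp). All counts by complex below follow the symbols, as for *Ndufa4* and *Ndufa4l2* under complex I, which need not be the complex that holds the protein. All 102 rows were found in GENCODE vM21 (GRCm38) as protein-coding genes, and 3 of them, *Ndufa1*, *Ndufb11* and *Cox7b*, lie on the X chromosome.

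The respiratory chain passes electrons from NADH through complexes I, III and IV to oxygen, and the proton gradient that it builds drives the ATP synthase. Its subunits come from both genomes, so that each of these complexes joins proteins made inside the mitochondrion with proteins imported from the cytosol. Several small subunits of complex IV exist as paired forms, one used in most tissues and another used in muscle, lung or male germ cells. In the testis, germ cells pass from spermatogonia to meiotic spermatocytes inside a tubule of Sertoli cells, Leydig cells between the tubules make steroids with mitochondrial enzymes, and in spermatocytes the X chromosome is silenced during meiosis.

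The libraries were made from the rete testis (RT), the network of channels into which the tubules open, and the adjacent tubules of C57BL/6 mice at postnatal day 14. There were 2 control libraries (labelled SF1Cre) and 2 *Sox17*-cKO libraries (labelled SF1Cre:Sox17flox/flox), each from the pooled cells of 3 pups, and values of single pups cannot be had. The *Sox17*-cKO mice carry a Cre recombinase driven by SF1 sequences, which are active in somatic cells of the gonad, and removes the floxed *Sox17* there, and germ cells keep the gene. The labels give the controls the Cre transgene, whereas the methods describe controls with floxed alleles and no Cre, so that an effect of Cre itself cannot be told apart from that of *Sox17* loss. The question of the comparison was what the loss of *Sox17* changes in the proximal testis.

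The libraries held 9388 to 13364 barcodes with 89969877 to 107203219 UMIs, and 20 to 43 barcodes were shared by any 2 libraries, at most 0.391% of the smaller one. The 22567 cells with 1000 to 4500 detected genes were retained, and 20 clusters were named from marker lists, with the respiratory chain genes left out of the genes used for clustering. A name with "-like" stands for a class of clusters. The Sertoli-, germ-, interstitial-, RT-, Leydig-, macrophage- and endothelial-like classes held 6165, 8393, 7168, 228, 228, 296 and 72 cells, and 17 surface epithelium-like cells are not used further. In RT-like cells all 7 RT markers were detected, and their sum was 1506 to 3206 CPM (UMIs per 1000000 of a class) against 36.8 to 50.3 in Sertoli-like cells. *Sox17* in RT-like cells was at 356 and 312 CPM in control 1 and 2 and at 45.5 and 34.6 in *Sox17*-cKO 1 and 2. In the text below, 4 values in a row belong to control 1, control 2, *Sox17*-cKO 1 and *Sox17*-cKO 2.

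Mitochondrial transcripts took their highest share of the UMIs in Sertoli-like cells and their lowest among the larger classes in macrophage- and interstitial-like cells, and the nuclear genes did not follow that order. The mitochondrial share is the percentage of all UMIs of a class that come from the 13 mt genes. In Sertoli-like cells it was 14.2%, 13.2%, 14% and 8.77%, a mean of 12.5% ± 2.54 (SD, n = 4 libraries). *Sox17*-cKO 2 stood apart there, and 43.8% of its Sertoli-like cells had under 5% mitochondrial UMIs, against 5.41% to 16.1% in the other libraries. The germ-like class was at 10.7% ± 0.601, with 10.4%, 10.1%, 10.7% and 11.5%, within the range of the Sertoli-like libraries. Below these came Leydig-like cells at 7.73% ± 1.24, RT-like cells at 7.20% ± 1.44, endothelial-like cells at 5.32% ± 0.685, interstitial-like cells at 4.62% ± 0.473 and macrophage-like cells at 4.13% ± 0.544 (SD, n = 4 for each). The Leydig- and RT-like ranges overlapped, as did those of neighbours among the endothelial-, interstitial- and macrophage-like classes. The germ-like class includes cluster 6, which had a mean mitochondrial share of 41.0%. The median germ-like cell was at 8.44%, 8.84%, 7.40% and 9.38% with that cluster and at 7.87%, 8.71%, 6.24% and 9.04% without it.

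The nuclear share is the percentage of non-mitochondrial UMIs that come from the 89 nuclear rows, so that it does not fall merely because the mitochondrial share rises. It was highest in Leydig-like cells, at 3.82% ± 0.278, with 3.51%, 3.81%, 4.19% and 3.78% in the libraries. RT-like cells followed at 3.26% ± 0.0426, and their 4 libraries lay between 3.21% and 3.31%. Germ-like cells were at 2.94% ± 0.234, Sertoli-like cells at 2.75% ± 0.185, endothelial-like cells at 2.43% ± 0.218, macrophage-like cells at 2.25% ± 0.104 and interstitial-like cells at 2.09% ± 0.109. Neighbours from the germ-like class downward had overlapping libraries. As a ratio, 1 UMI of a nuclear member was met by 5.22 ± 1.14 mitochondrial UMIs in Sertoli-like cells and 4.09 ± 0.451 in germ-like cells, but by 2.22 ± 0.475 in Leydig-like, 2.31 ± 0.254 in interstitial-like and 2.39 ± 0.521 in RT-like cells. Within the Sertoli-like class, cluster 2 (2515 cells) had a nuclear share of 3.65% ± 0.183 and a ratio of 2.82 ± 0.41. Its libraries, at 3.48% to 3.81%, lay above the RT-like range. Cluster 1 (2825 cells) had 2.48% ± 0.133 and 5.56 ± 0.962. The median detected genes were 1321 to 1493 in cluster 2 and 2951.5 to 3553 in cluster 1.

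**Figure D1:**
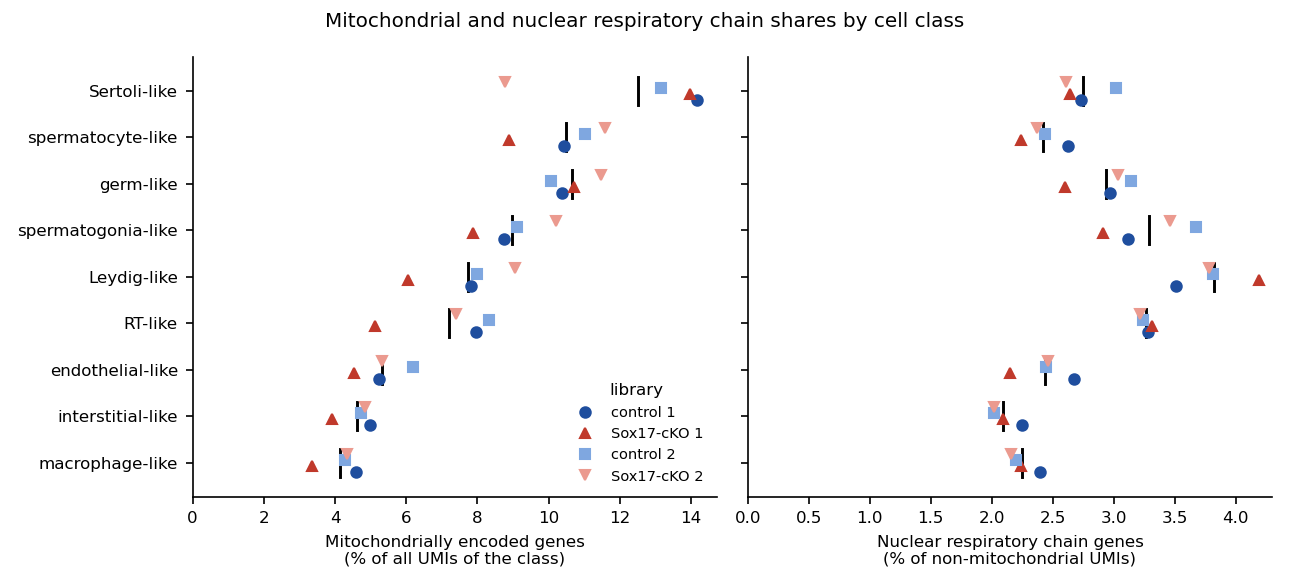
Mitochondrial share (% of all UMIs, left) and nuclear respiratory chain share (% of non-mitochondrial UMIs, right) on the x axes, for each class on the y axis; the spermatogonia- and spermatocyte-like classes are parts of the germ-like class. Each mark is 1 library and black bars are means: Sertoli-like cells have the highest mean on the left (12.5%), with *Sox17*-cKO 2 at 8.77%, and Leydig-like cells the highest on the right (3.82%).

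Differences between classes were compared within libraries, where an exact sign-flip permutation test over 4 pairs cannot give a two-sided p below 0.13. The mitochondrial share of interstitial-like cells differed from that of Sertoli-like cells by -7.90 ± 2.73 percentage points (SD of the paired differences, n = 4) and was lower in all 4 libraries (exact permutation p = 0.13). RT-like cells differed from Sertoli-like cells by -5.32 ± 3.11 points, again lower in all 4 libraries (exact permutation p = 0.13). Leydig-like cells were 3.11 ± 0.868 points above interstitial-like cells in 4 of 4 libraries (exact permutation p = 0.13), although control 1 had only 12 Leydig-like cells. Germ-like cells differed from Sertoli-like cells by -1.86 ± 3.06 points (exact permutation p = 0.25), with *Sox17*-cKO 2 the other way, and among cells under 10% mitochondrial UMIs they were 0.92 points above. That limit is set on the quantity compared, and so can narrow a difference by its construction. It kept 469 of 1958, 405 of 984, 818 of 1772 and 885 of 1451 Sertoli-like cells and 29 of 36, 53 of 73, 31 of 33 and 65 of 86 RT-like cells. In the cells it kept, RT-like cells differed from Sertoli-like cells by -0.0766 points, and interstitial-like cells by -1.86 points with 1 of 4 libraries the other way (exact permutation p = 0.25). As a median over cells, the RT-like difference was -3.92 points, again with 1 of 4 libraries the other way (exact permutation p = 0.25).

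Over all barcodes *mt-Co3* made up 22.9% ± 0.803 (SD, n = 4) of the mitochondrial UMIs, *mt-Atp6* 21.3% ± 0.683, *mt-Co1* 17.5% ± 1.12 and *mt-Co2* 12.8% ± 1.74, whereas *mt-Atp8* made up 0.197% ± 0.0418 and *mt-Nd6* 0.112% ± 0.0472. These are shares of counted tags, each given to the gene where it lies. *mt-Atp8* (M:7766-7969) overlaps *mt-Atp6* (M:7927-8607), and *mt-Nd4l* (M:9877-10173) overlaps *mt-Nd4* (M:10167-11544). The counts of these genes may therefore not be counts of separate molecules. The mt genes also have nuclear copies: of the 31-base words in the last 300 bases of *mt-Co1*, *mt-Co2*, *mt-Co3*, *mt-Atp6*, *mt-Nd3* and *mt-Nd4l*, between 98.9% and 100% occur in another annotated gene, so that reads there may not be unique. For *mt-Nd2* the share was 40.7%, and for the other 6 between 0% and 11.9%.

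Spermatocyte-like cells had more transcripts of the mitochondrial complex I genes and fewer of many nuclear subunits than spermatogonia-like cells. The first class joins clusters 10 and 9, led among others by the meiotic genes *Dmc1* and *Tesmin*, and the second clusters 12 and 8, with *Zbtb16* and *Dnmt3b*. The mitochondrial share was 10.4%, 11%, 8.90% and 11.6% in spermatocyte-like cells and 8.75%, 9.11%, 7.89% and 10.2% in spermatogonia-like cells, a rise of 1.5 ± 0.393 points that was seen in 4 of 4 libraries (exact permutation p = 0.13). Without integration of the libraries it was 0.259 points, with 2 of 4 libraries higher (exact permutation p = 0.5). It was 0.66 points with no upper limit on genes (3 of 4 libraries, exact permutation p = 0.25), 0.631 under 10% mitochondrial UMIs (3 of 4, exact permutation p = 0.375) and 0.833 with the members kept in the clustering (4 of 4). The nuclear share was lower in the spermatocyte-like than in the spermatogonia-like cells, at 2.42% ± 0.161 against 3.29% ± 0.343 (SD, n = 4). By cluster the mean mitochondrial share was 9.55% and 8.65% in clusters 12 and 8, and 9.56% and 11.6% in 10 and 9. The mean nuclear share was 3.01%, 3.46%, 2.16% and 2.70% in the same order. Germ-like clusters 4 and 7, in neither class, had mitochondrial shares of 7.42% and 8.24%. Sertoli markers summed to 273 to 1761 CPM in spermatocyte-like cells and to 146 to 366 in spermatogonia-like cells. Their part in these differences was not tested.

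Summed counts were compared gene by gene with edgeR's quasi-likelihood test, with the library as a block, and an adjusted p below 0.05 over all genes tested was taken as a change. Of 97 members tested, 27 were higher and 45 lower in spermatocyte-like cells, beside 36.1% and 38.2% of all genes. Thus 9 of 13 mt genes rose and 0 fell, while 18 nuclear members rose and 45 fell, of 84. On plain CPM (before any scaling of the libraries), 31 members were higher and 45 lower in all 4 libraries, beside 40.1% and 37.8% of all genes. With no upper limit on detected genes, 41 of 100 members were higher and 35 lower, beside 36.1% and 40.3% of all genes in that fit. The spermatogonia-like class then held 1486, 828, 1132 and 879 cells, against 842, 189, 490 and 289 under the limit. The spermatocyte-like class held 1020, 685, 1092 and 561, against 660, 342, 598 and 295. Without integration 36 of 97 were higher and 42 lower, beside 36.3% and 36.1%, and 8 mt genes were higher and 3 lower. The 9 mt genes were all 7 mt-Nd genes, *mt-Cytb* and *mt-Co2*. Levels of mt genes are given in CPM of all UMIs and levels of nuclear genes in CPM of non-mitochondrial UMIs. *mt-Nd2* stood at 3423, 3330, 2737 and 4008 CPM in spermatocyte-like cells and at 1827, 1911, 1633 and 2538 in spermatogonia-like cells, a log2 difference of 0.77 ± 0.07 (SE, as for all log2 differences; edgeR adjusted p = 1.2e-06). *mt-Cytb* rose by 0.61 ± 0.06 (edgeR adjusted p = 1.8e-06) and *mt-Co2* by 0.37 ± 0.05. In contrast, the log2 differences of *mt-Co1*, *mt-Co3*, *mt-Atp6* and *mt-Atp8* were 0.05 ± 0.05, 0.02 ± 0.05, 0.04 ± 0.05 and 0.02 ± 0.10, with edgeR adjusted p of 0.41 to 0.88. The complex I and III transcripts and *mt-Co2* thus passed the test and the other 4 did not.

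Among the nuclear subunits, to be read beside the same 36.1% and 38.2% of all genes, the complex I genes had 7 members higher and 19 lower of 37, the ATP synthase 2 higher and 12 lower of 16, complex III 2 and 5 of 8, and complex IV 4 and 6 of 15. *Ndufs8*, an iron-sulfur subunit of complex I, fell from 258, 210, 247 and 182 CPM to 63.1, 29.3, 57.2 and 24.9, with a log2 difference of -2.44 ± 0.16 (edgeR adjusted p = 8.9e-08). *Atp5g1*, one of 3 genes for the c subunit of the ATP synthase rotor, fell by 1.85 ± 0.12 on the log2 scale, and *Ndufb9* by 1.69 ± 0.10. Others rose: *Ndufv2*, a subunit of the NADH-oxidising arm, was at 308, 615, 321 and 542 in spermatocyte-like cells against 146, 337, 146 and 226 in spermatogonia-like cells, a log2 difference of 1.05 ± 0.10. The libraries numbered 2 were the higher ones in both classes, and the classes did not overlap within either number. Of the 8 assembly factors 3 rose, led by *Ndufaf3* at 2.86 ± 0.18 (SE; 62.7 against 8.45 CPM), and 3 fell.

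Within complex IV, *Cox6b1* and *Cox6b2*, *Cox7b* and *Cox7b2*, and *Cox8a* and *Cox8c* differed in opposite directions between these classes. *Cox6b1*, the common form of a subunit at the dimer interface, was at 658, 1458, 653 and 1704 CPM in spermatogonia-like cells and at 212, 394, 218 and 374 in spermatocyte-like cells. That is a log2 difference of -1.86 ± 0.11 (edgeR adjusted p = 4.0e-08). Its testis form *Cox6b2* went from 41.2, 60.1, 41.5 and 42.8 to 223, 68.2, 104 and 121, a difference of 1.4 ± 0.27 (edgeR adjusted p = 0.00049). The common form was lower and the testis form higher in each of the 4 libraries.

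The same was seen for a second pair, *Cox7b* and *Cox7b2*. *Cox7b*, which is X-linked (X:106015700-106022450), fell from 149, 180, 163 and 172 to 44.4, 22.1, 38.0 and 28.8 (log2 difference -2.34 ± 0.18, edgeR adjusted p = 3.7e-07). *Cox7b2*, on chromosome 5 (5:71442824-71548205), rose from 128, 141, 130 and 109 to 394, 292, 236 and 253 (1.16 ± 0.13, edgeR adjusted p = 6.5e-06). In the third pair *Cox8a* fell from 914, 1566, 830 and 2116 to 177, 188, 165 and 182 (-2.85 ± 0.18, edgeR adjusted p = 6.5e-08), and *Cox8c* rose from 56.0, 44.3, 70.8 and 33.8 to 385, 103, 251 and 139 (1.99 ± 0.20, edgeR adjusted p = 3.0e-06). Each of these 6 calls held under all 12 alternatives run.

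The forms also differed between the clusters within these classes. Cluster 6 (1430 germ-like cells), which had a high mitochondrial share, is left out of this order. Along the other germ-like clusters, ordered by their leading stage genes, from 12 through 8 (*Dnmt3b*), 4 (*Dmrtb1*), 7 (*Stra8*) and 10 (*Dmc1*) to 9 (*Tesmin*), *Cox8a* had a mean of 1470, 1302, 548, 251, 174 and 184 CPM (SD 710, 581, 228, 90.2, 18.7 and 6.75, n = 4). *Cox8c* had means of 32.1, 62.7, 42.8, 36.1, 46.5 and 394 (SD 14.7, 18.7, 10.0, 18.8, 7.26 and 197), so it was high in the last cluster alone. *Cox6b2* was likewise highest in the last, with a mean of 11.7 ± 5.81 in cluster 10 and 253 ± 84.7 in cluster 9. *Cox7b2* was at 162 ± 20.8 and 438 ± 91.6 in these clusters. In cluster 10 the common forms were low and *Cox6b2* and *Cox8c* were low too, and in cluster 9 the testis forms were high. These clusters are a division of the same cells by expression, so their values are a description, and no test was made between them.

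Some UMIs of the germ forms were also found outside the germ-like class. In macrophage-like cells, which should lack these forms, *Cox8c* was at 43.1, 0, 40.7 and 0 CPM and *Cox7b2* at 30.8, 3.34, 27.1 and 0, from 22 and 18 UMIs in all. The libraries numbered 1 were thus the higher ones. In the libraries numbered 2, where macrophage-like cells had none of *Cox8c*, spermatogonia-like cells were at 44.3 and 33.8. The source of these UMIs was not tested, and no doublet caller was run.

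The bases before the transcription start (RefSeq, GRCm38.p6) are given 5′ to 3′ on the strand of the gene, without those that GENCODE places inside the gene, and with CpG in capitals. They are shown because these forms differed in opposite directions between the germ classes, and *Ndufa1* because it rose where the other X-linked members fell. *Cox8c* is named only.
*Cox6b1* (chr7:30626152-30626364, minus strand): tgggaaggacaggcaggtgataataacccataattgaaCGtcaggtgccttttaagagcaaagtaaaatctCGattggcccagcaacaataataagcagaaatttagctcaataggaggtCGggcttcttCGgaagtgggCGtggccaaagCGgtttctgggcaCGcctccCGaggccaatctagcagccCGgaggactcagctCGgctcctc
*Cox6b2* (chr7:4753095-4753344, minus strand): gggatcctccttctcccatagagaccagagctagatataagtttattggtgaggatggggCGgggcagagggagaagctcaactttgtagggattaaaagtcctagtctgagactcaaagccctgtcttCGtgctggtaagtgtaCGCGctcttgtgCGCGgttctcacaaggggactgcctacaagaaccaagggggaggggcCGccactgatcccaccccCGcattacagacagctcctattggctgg
*Cox7b* (chrX:106015450-106015699, plus strand): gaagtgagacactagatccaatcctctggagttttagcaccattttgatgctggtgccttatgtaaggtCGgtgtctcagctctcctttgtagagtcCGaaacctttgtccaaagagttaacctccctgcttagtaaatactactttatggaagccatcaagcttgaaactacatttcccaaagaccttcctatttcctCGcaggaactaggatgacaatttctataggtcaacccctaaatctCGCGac
*Cox7b2* (chr5:71548206-71548455, minus strand): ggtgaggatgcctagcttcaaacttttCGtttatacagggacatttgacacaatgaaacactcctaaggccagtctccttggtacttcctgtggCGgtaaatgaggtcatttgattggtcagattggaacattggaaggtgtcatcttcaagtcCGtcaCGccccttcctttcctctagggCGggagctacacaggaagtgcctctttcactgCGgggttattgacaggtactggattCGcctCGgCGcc
*Cox8a* (chr19:7217617-7217866, minus strand): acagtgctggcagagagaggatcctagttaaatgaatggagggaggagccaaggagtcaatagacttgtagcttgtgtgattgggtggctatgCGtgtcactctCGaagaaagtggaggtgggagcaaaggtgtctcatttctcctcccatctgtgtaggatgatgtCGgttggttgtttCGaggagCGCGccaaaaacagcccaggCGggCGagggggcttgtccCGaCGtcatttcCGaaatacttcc
*Ndufa1* (chrX:37191239-37191488, minus strand): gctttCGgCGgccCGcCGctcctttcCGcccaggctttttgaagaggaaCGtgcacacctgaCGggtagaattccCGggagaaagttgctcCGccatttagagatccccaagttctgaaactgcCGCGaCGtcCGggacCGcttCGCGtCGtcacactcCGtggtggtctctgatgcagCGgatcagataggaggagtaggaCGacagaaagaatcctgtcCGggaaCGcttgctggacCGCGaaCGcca
The 213 bases of *Cox6b1* hold 10 CpG and the 250 of *Cox6b2* hold 8, *Cox7b* and *Cox7b2* hold 5 and 9, *Cox8a* holds 11 and *Ndufa1* holds 25. Over 80 windows of 75 member symbols the median was 14.5 CpG per 250 bases, against 6 over 32851 windows of all genes. On either strand, the NRF1-type motif, a palindrome searched as exact letters, was found in 5 of the 75 (6.67%; *Atp5g2*, *Atp5k*, *Cox6a1*, *Ndufa11* and *Ndufaf4*) and in 0.877% of all genes. TGACGTCA, the palindrome of CREB-type factors, was found in 4 of the 75 (5.33%; *Ndufa10*, *Ndufa11*, *Ndufb2* and *Uqcrfs1*) and in 1.77% of all genes, and GGGCGG of SP/KLF-type factors in 30 (40%) against 35.4%. A match describes letters only.

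The 3 X-linked members did not move as 1 group. *Ndufa1* (X:37187588-37191163), a small subunit needed to assemble complex I, was at 136, 166.5, 132 and 164 CPM in spermatogonia-like cells and at 746, 905, 704 and 1062 in spermatocyte-like cells, a log2 difference of 2.47 ± 0.10 (edgeR adjusted p = 3.0e-09). All 4 libraries of the second class lay above all 4 of the first. *Ndufb11* (X:20615326-20617619), another complex I subunit, went from 213, 169, 216 and 182 to 140, 128, 126 and 113, a difference of -0.66 ± 0.11 (edgeR adjusted p = 0.00014), and 33.0% of the 31-base words at its transcript end occur in another gene. Across the ordered clusters *Ndufa1* had means of 80.4, 190, 289, 533, 897 and 808, and *Ndufb11* of 289, 142, 40.1, 102, 93.6 and 169. *Cox7b*, given above, had 247, 120, 88.0, 70.0, 29.9 and 38.1. For *Ndufa1* and *Cox7b* none and 6.23% of the words were shared.

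**Figure D2:**
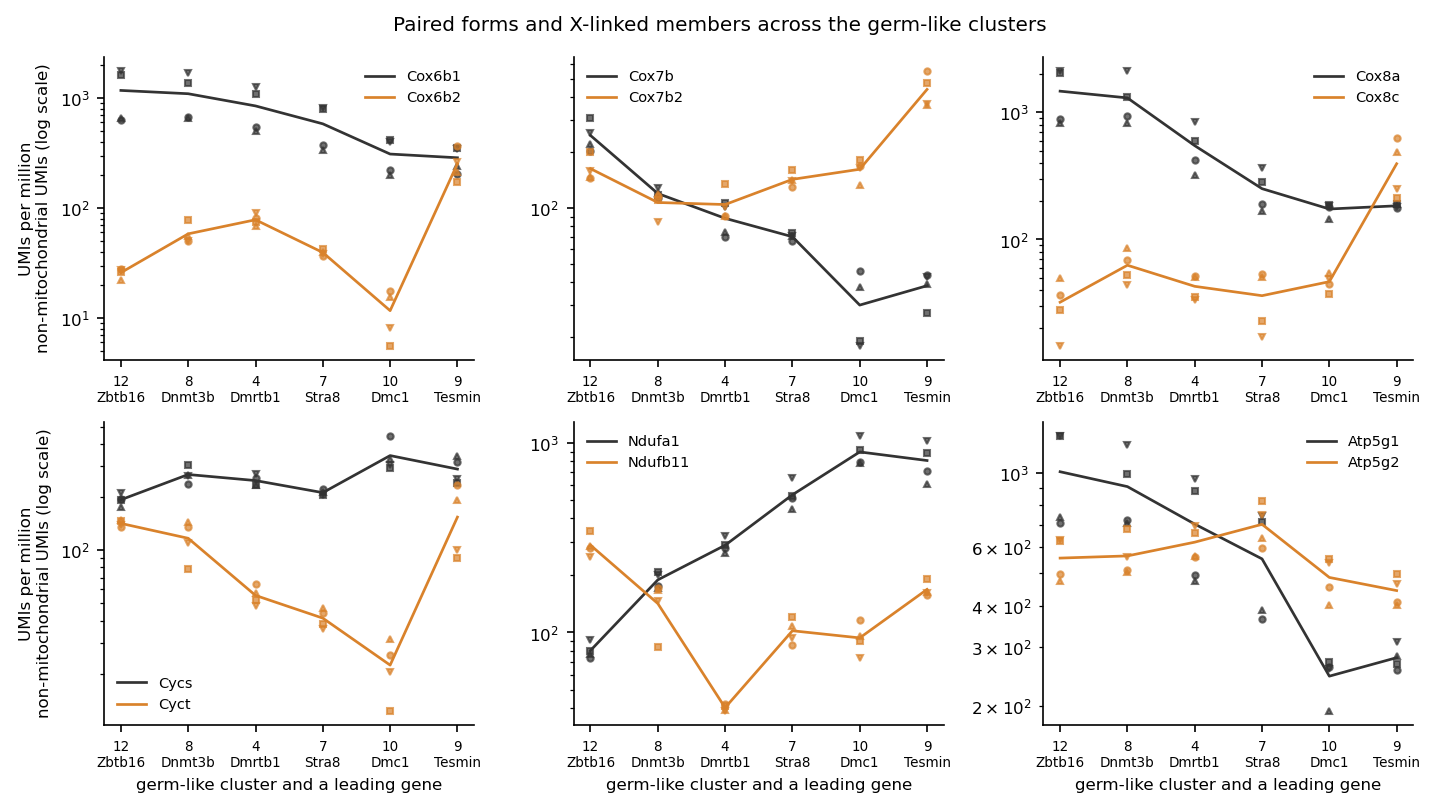
Levels of paired forms and of 2 X-linked complex I members (CPM of non-mitochondrial UMIs, log scale) in 6 of the 7 germ-like clusters on the x axis (cluster 6 is left out), each with a leading gene; marks are libraries (circles control 1, squares control 2, upward triangles *Sox17*-cKO 1, downward triangles *Sox17*-cKO 2) and lines join means. *Cox8a* falls from 1470 to 184 while *Cox8c* rises to 394 in the last cluster, and *Ndufa1* rises from 80.4 to 808.

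The other pathway genes are a list of 49: complex II, the cytochromes c and c1, assembly factors of complexes III and IV and of the ATP synthase, factors of mitochondrial transcription and replication, their nuclear regulators, the ADP/ATP carriers and the outer membrane channels (Vdac). Of these, 16 rose and 15 fell of 47 tested between the germ classes, beside 36.1% and 38.2% of all genes. *Sco2*, which delivers copper to complex IV, fell by 3.0 ± 0.24 on the log2 scale, and *Tfb1m*, which modifies mitochondrial ribosomal RNA, rose by 1.95 ± 0.19. *Cyct*, the testis form of cytochrome c, was at 135, 100, 146 and 119 in spermatogonia-like cells and at 147, 41.9, 104 and 55.7 in spermatocyte-like cells, with 22.4 ± 8.04 in cluster 10 and 154 ± 69.9 in cluster 9. Its 2 classes overlapped, and the call (log2 difference -0.65 ± 0.19) joins a low and a high cluster.

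Against Sertoli-like cells, most mt genes were lower in germ-like cells by the fit, and nuclear members differed in both directions. Of 100 members tested, 25 were higher and 45 lower in germ-like cells, beside 41.7% and 37.2% of all genes. Of the 13 mt genes 0 were higher and 10 lower, and of 87 nuclear members 25 were higher and 35 lower. The split of the nuclear members depends on the scaling. On plain CPM, counted where all 4 libraries agree and with no test, 44 of the 87 were higher and 26 lower, among genes with 10 or more UMIs in each library, beside 53.2% and 32.6% of all such genes. Of the mt genes, 3 of 13 were lower in all 4 libraries by that count. The fit scales libraries by the bulk of their genes, so its log2 differences stand apart from those of the plain CPM levels by a median of -0.32 here, 0.25 for interstitial-like and -0.21 for RT-like cells against Sertoli-like cells. With no upper limit on detected genes, 16 of 100 members were higher and 56 lower, beside 39.2% and 38.5% of all genes in that fit. *mt-Nd2* was at 2637, 2577, 2616 and 3289 CPM in germ-like cells and at 4959, 5135, 4850 and 4086 in Sertoli-like cells (log2 difference -1.13 ± 0.15, edgeR adjusted p = 0.00047). In cells under 10% mitochondrial UMIs, 2 of these 10 mt calls held, and the log2 differences of *mt-Atp6*, *mt-Nd3* and *mt-Nd4* were above 0.

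Nuclear members that were higher in germ-like cells included *Ndufs7*, at 184, 248, 180 and 229 CPM against 83.7, 89.3, 83.3 and 81.4 (log2 difference 0.98 ± 0.09, edgeR adjusted p = 9.8e-05), and *Atp5f1*, a stator subunit of the ATP synthase, at 674, 1068, 737 and 910 against 330, 376, 382 and 326 (0.92 ± 0.11). *Ndufs1*, *Ndufa9* and *Ndufaf8* rose by 0.73 ± 0.09, 0.78 ± 0.10 and 0.83 ± 0.11. Of the 8 complex I assembly factors 5 were higher and 0 lower, beside 41.7% and 37.2% of all genes. The lower members with the smallest adjusted p were *Cox7a1*, *Ndufb11*, *Ndufa3*, *Atp5c1* and *Ndufb4*. *Cox7a1*, known as the heart and muscle form of a complex IV subunit, was at 111, 141, 110 and 106 in Sertoli-like cells and at 17.3, 8.02, 16.3 and 12.5 in germ-like cells, a log2 difference of -3.45 ± 0.29 (edgeR adjusted p = 6.2e-05). No library of one class reached the range of the other. The testis forms were higher in germ-like cells, *Cox7b2* by 3.11 ± 0.62, *Cox6b2* by 2.12 ± 0.38 and *Cox8c* by 2.07 ± 0.67 (edgeR adjusted p = 0.024), and the call of *Cox8c* was lost without *Sox17*-cKO 2. In Sertoli-like cells *Cox8c* was at 41.4, 3.23, 75.1 and 1.22 CPM, higher in the libraries numbered 1, as in macrophage-like cells.

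Of the pathway genes 20 were higher and 20 lower of 48, beside 41.7% and 37.2% of all genes. *Cycs*, the somatic cytochrome c, was at 1233, 1642, 1136 and 1505 CPM in Sertoli-like cells and at 272, 240, 261 and 248 in germ-like cells (log2 difference -2.74 ± 0.18), while *Cyct* was higher in germ-like cells by 2.50 ± 0.51. *Slc25a31*, the germ cell form of the ADP/ATP carrier, was higher by 3.56 ± 0.43, and the somatic forms *Slc25a4* and *Slc25a5* lower by -3.94 ± 0.36 and -4.20 ± 0.41 (log2). The channel *Vdac1* was lower in germ-like cells too (-3.78 ± 0.33).

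Interstitial-like cells had lower levels of all mt genes and of many nuclear members than Sertoli-like cells. Of 101 members 18 were higher and 51 lower than in Sertoli-like cells, beside 37.3% and 36.9% of all genes. All 13 mt genes were lower, with log2 differences from -1.04 (*mt-Nd3*) to -1.74 (*mt-Nd2*). In cells under 10% mitochondrial UMIs 3 of these calls held, and the log2 difference of *mt-Nd3* was above 0. Of 88 nuclear members 18 were higher and 38 lower, and on plain CPM in all 4 libraries 12 and 61, beside 31.6% and 49.3% of all genes. *Cox5a*, a matrix-side subunit of complex IV, was at 297, 201, 304 and 194 CPM in interstitial-like cells against 1049, 1117, 1104 and 948 in Sertoli-like cells (log2 difference -1.86 ± 0.13, edgeR adjusted p = 2.8e-07). *Cox7a1* was lower by -3.91 ± 0.17 and *Ndufa8* by -1.04 ± 0.09. *Cox7b* and *Cox7a2l* were higher, by 1.28 ± 0.12 and 0.96 ± 0.09. Of 49 pathway genes 5 were higher and 25 lower, beside the same 37.3% and 36.9%.

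Some rarer forms had most of their interstitial-like UMIs in a single cluster. *Ndufa4l2* and *Cox4i2*, forms known from low oxygen and from lung and vessel walls, had most of their interstitial-like UMIs (896 of 1380 and 556 of 672) in cluster 13, which was led by the mural cell genes *Rgs5* and *Notch3*. There *Ndufa4l2* was at 607, 417, 413 and 589 CPM and *Cox4i2* at 285, 327, 172 and 404. In the larger interstitial cluster 0 (*Col1a1*, *Col3a1*) they were at 12 ± 5.33 and 2.61 ± 1.43 (SD, n = 4). *Cox8b*, the muscle form, had 226 UMIs in interstitial-like cells, of which 210 were in cluster 0, and 1 UMI in Sertoli-like cells. *Cox6a2*, also a muscle form, had 376 UMIs in all barcodes. *Cox6b2*, described above for spermatocytes, was not a germ transcript only: it stood at 126, 91.7, 122 and 127 CPM in interstitial-like cells and at 69.9, 58.5, 140 and 92.6 in RT-like cells, above the 12.3, 13.4, 40.7 and 23.3 of macrophage-like cells.

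By the fit, RT-like cells had lower levels of all mt genes than Sertoli-like cells and a mixed set of nuclear ones. Of 98 members tested, 17 were higher and 28 lower than in Sertoli-like cells, beside 23.2% and 28.5% of all genes. Sertoli markers (9 of 10 with UMIs) summed to 1773 to 2295 CPM in RT-like cells against 8955 to 9982 in Sertoli-like cells. That list includes *Sox9*, *Gata4* and *Wt1*, which the paper gives as markers shared by Sertoli and RT epithelial cells. The sum can therefore hold transcripts of the RT-like cells themselves, and its part in these differences was not tested. The 13 mt genes were all lower, and of 85 nuclear members 17 were higher and 15 lower. On plain CPM in all 4 libraries, 9 of the 13 mt genes were lower, and 44 of the 85 nuclear members were higher and 16 lower, beside 25.8% and 30.1% of all genes, so the nuclear split depends on the scaling here too. With the mt rows removed before scaling, 23 nuclear members were higher and 14 lower, beside 24.8% and 26.5% of all genes in that fit. With no upper limit on genes 37 of 99 members were higher and 20 lower, beside 28.3% and 25.9%. The RT-like class then held 71, 203, 44 and 176 cells, against 36, 73, 33 and 86 under the limit. *mt-Atp6* was at 14281, 12949, 9185 and 11581 CPM in RT-like cells against 31900, 27999, 32591 and 17940 in Sertoli-like cells (log2 difference -1.47 ± 0.21, edgeR adjusted p = 1.2e-06). Of the 13 mt calls 1 held in cells under 10% mitochondrial UMIs, a limit set on the quantity compared. There 8 members were higher and 17 lower, beside 25.5% and 24.4% of all genes. In those cells the log2 differences of *mt-Nd3*, *mt-Nd4l*, *mt-Nd4*, *mt-Nd5* and *mt-Cytb* were above 0.

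Of the nuclear members, *Cox6b2* was higher in RT-like cells by 2.61 ± 0.25 (edgeR adjusted p = 1.1e-09), *Ndufs7* by 0.98 ± 0.15, *Cox7b* by 0.87 ± 0.15, *Ndufa11* by 0.82 ± 0.16 and *Cox8a* by 0.70 ± 0.16 on the log2 scale. *Cox7b* was at 263, 378, 262 and 399.5 CPM in RT-like cells and at 127, 210, 108 and 174 in Sertoli-like cells, with no overlap. *Cox7a1* was again lower, at 16.4, 13.2, 8.72 and 4.87 (log2 difference -3.82 ± 0.27), and so was *Atp5c1*, the central stalk of the ATP synthase (-1.14 ± 0.16). Of 49 pathway genes 8 were higher and 12 lower, beside 23.2% and 28.5% of all genes. *Ppargc1a*, a coactivator of mitochondrial biogenesis, was at 45.2, 69.9, 52.3 and 110 in RT-like cells against 4.01, 2.28, 2.83 and 4.40 in Sertoli-like cells, a log2 difference of 4.14 ± 0.30. *Ppargc1b* was higher by 4.58 ± 0.60, from 39 UMIs in RT-like cells.

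Leydig-like cells had higher levels of most of the chain than interstitial-like cells. Of 100 members tested, 86 were higher and 4 lower, beside 20.7% and 24.4% of all genes, with a median log2 difference of 0.81 over the members and -0.06 over all genes. On plain CPM in all 4 libraries, 83 were higher and 5 lower, beside 20.3% and 30.7% of all genes. The 13 mt genes were all higher, from 0.45 ± 0.15 for *mt-Nd3* to 1.05 ± 0.14 for *mt-Nd6*. Of the nuclear members 36 of 38 complex I genes, 8 of 8 complex III genes, 15 of 16 ATP synthase genes and 11 of 17 complex IV genes were higher. *Uqcr10*, a small complex III subunit, was at 796, 896, 827 and 981 CPM in Leydig-like cells and at 315, 294, 273 and 340 in interstitial-like cells (log2 difference 1.47 ± 0.15, edgeR adjusted p = 8.1e-22). *Uqcrq*, *Uqcr11* and *Cox6a1* were higher by 1.58 ± 0.14, 1.3 ± 0.14 and 1.5 ± 0.15. The library ranges of *Uqcr10* did not overlap, and the lowest Leydig-like value came from the library with 12 such cells.

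*Cox7a1* was the member with the largest rise, at 118, 78.6, 95.4 and 58.2 CPM in Leydig-like cells against 8.05, 4.92, 8.25 and 6.25 in interstitial-like cells (3.59 ± 0.21, edgeR adjusted p = 4.8e-64). The 4 members that were lower were *Cox6b2* (-1.74 ± 0.18), and *Ndufa4l2*, *Cox4i2* and *Cox8b*, which had 3, 2 and 1 UMIs in Leydig-like cells. *Cox7a2l* was at 308, 461, 450 and 508 against 426, 515, 424 and 533, and the difference of -0.17 ± 0.15 did not pass the test (edgeR adjusted p = 0.38). Of 48 pathway genes 27 were higher and 5 lower, beside 20.7% and 24.4% of all genes. *Sdha* and *Sdhb* of complex II, which has no mt gene, were higher by 1.05 ± 0.14 and 1.08 ± 0.14, and *Ppargc1a* was lower, with 3 UMIs in Leydig-like cells against 17.0 ± 3.21 CPM in interstitial-like cells.

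**Figure D3:**
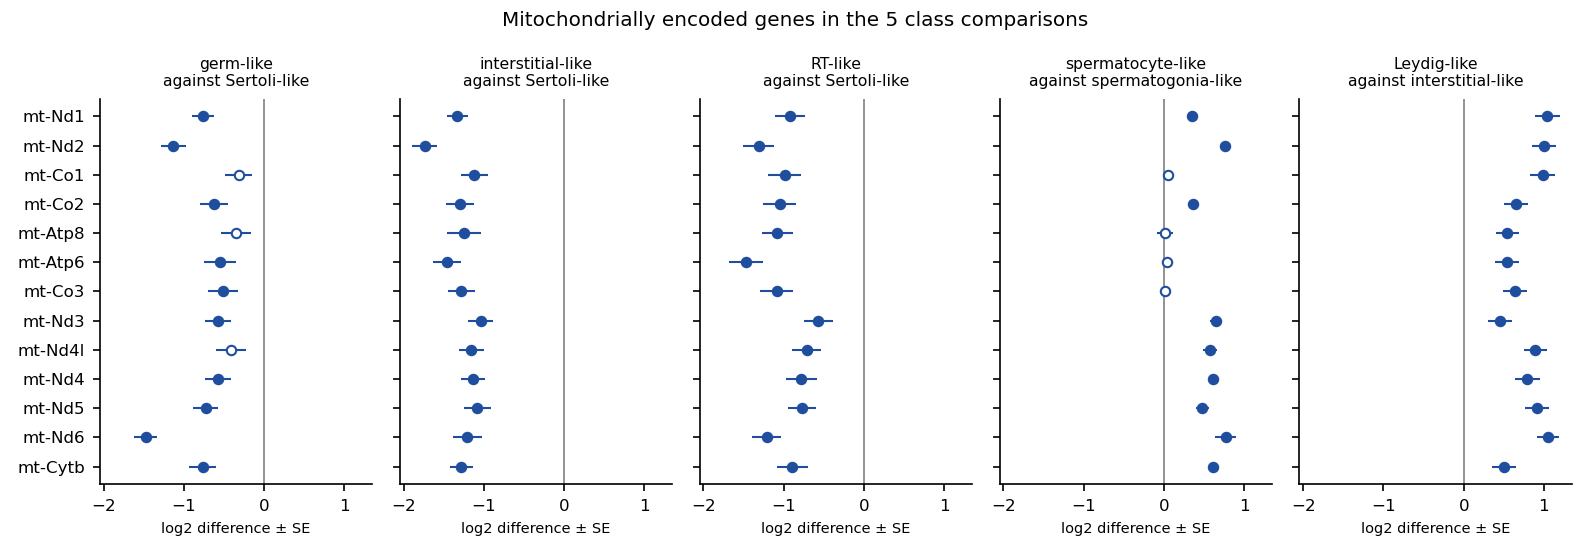
Log2 differences ± SE (x axes) of the 13 mt genes (y axis, in genome order) in the 5 class comparisons, 1 panel each; filled marks passed the test. All 13 lie below 0 for interstitial- and RT-like cells and above 0 for Leydig-like cells, and in spermatocyte-like cells the 7 mt-Nd genes, *mt-Cytb* and *mt-Co2* lie apart from the other 4.

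**Figure D4:**
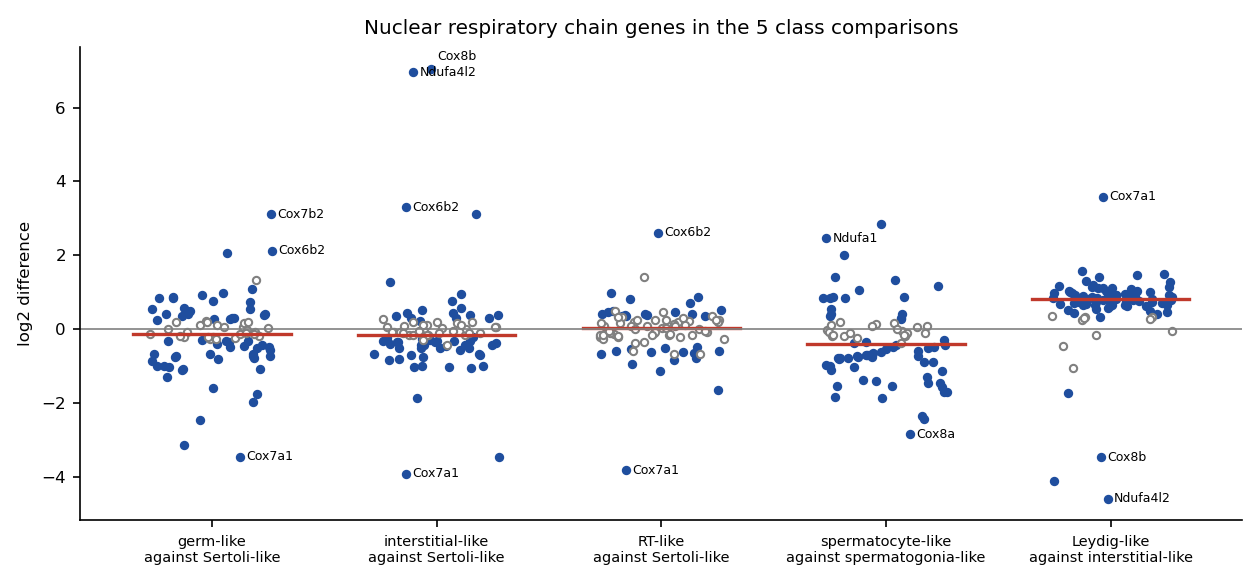
Log2 differences (y axis) of the nuclear members in the 5 class comparisons (x axis); each mark is 1 gene, filled where it passed the test, red bars are medians, and the spread within a column carries no meaning. Members lie on both sides of 0 in the first 4 comparisons and mostly above 0 for Leydig-like cells, where 73 of 87 were higher; values of *Cox8b* and *Ndufa4l2* rest on few UMIs in one of the classes.

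The mitochondrial share also differed with the number of genes detected in a barcode. In barcodes with fewer than 1000 detected genes it was 23.1%, 32.9%, 14.6% and 21.0%, in those with 1000 to 4500 genes 10.5%, 7.62%, 10.1% and 7.71%, and above 4500 genes 8.55%, 8.44%, 7.24% and 7.46%. In finer steps the order was not even, since control 1 was at 16.2% up to 500 genes and at 24.6% from there to 1000. The median barcode under 1000 genes was at 7.56%, 8.05%, 4.46% and 6.92%, and that of the retained cells at 8.83%, 5.77%, 7.16% and 5.45%. The median was thus lower under 1000 genes in the libraries numbered 1 and higher in those numbered 2. Of the barcodes under 1000 genes, 30.6%, 25.9%, 12.2% and 18% were above 30% mitochondrial UMIs. Of the retained cells, 7.69%, 1.93%, 12.5% and 2.78% were above 30%. Below 1%, the limit given in the methods, lay 212 of the 22567. By library these were 12, 31, 24 and 145 cells. Of the Sertoli-like cells of *Sox17*-cKO 2, 8.48% lay below 1%, against 0.0511% to 0.610% in the other libraries.

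Among germ-like cells, the nuclear share fell as the mitochondrial share of the cell rose. In germ-like cells under 5% mitochondrial UMIs the nuclear share was 3.32%, 3.68%, 2.89% and 3.34%, and in those at 40% or more it was 2.27%, 1.38%, 1.81% and 1.13%. The fall was seen in 4 of 4 libraries. The same cells were small, with a median of 1228 to 1361 detected genes at 40% or more against 1928 to 2794.5 under 5%. In Sertoli-like cells the nuclear share went from 3.51%, 3.47%, 3.22% and 2.68% under 5% to 2.50%, 2.53%, 1.96% and 1.95% between 20% and 40%. In *Sox17*-cKO 2 it was 2.82% between 5% and 10%, so there the order was not even. Sertoli-like cells under 5% had a median of 1311.5, 1552.5, 1299 and 2308 detected genes. Those between 10% and 20% had 2736, 2220, 3030 and 2991. The nuclear share of interstitial-like cells went the other way at the low end, from 2.16%, 1.94%, 2.07% and 1.99% under 5% to 2.55%, 2.23%, 2.36% and 2.11% between 5% and 10%. The relations are given as descriptions over 4 libraries.

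A germ-like and a Sertoli-like cluster stood apart by their mitochondrial share. Cluster 6 (1430 cells) had mitochondrial shares of 37.7%, 49.1%, 33.2% and 44.1% with nuclear shares of 2.50%, 1.32%, 2.02% and 1.12%. Cluster 11 (825 cells) had 25.6%, 39.5%, 31.2% and 15.1%, with nuclear shares of 2.29%, 1.23%, 1.84% and 1.04%. In *Sox17*-cKO 2 the median cell of cluster 11 was at 7.47%, near the 6.68% of that library's Sertoli-like cells. Cluster 6 took 14.7%, 3.79%, 28.5% and 11.1% of the germ-like cells and cluster 11 took 13.4%, 2.85%, 23.9% and 7.58% of the Sertoli-like cells, so both were commonest in *Sox17*-cKO 1 and rarest in control 2. Without both clusters, each mt gene called between classes was called again.

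**Figure D5:**
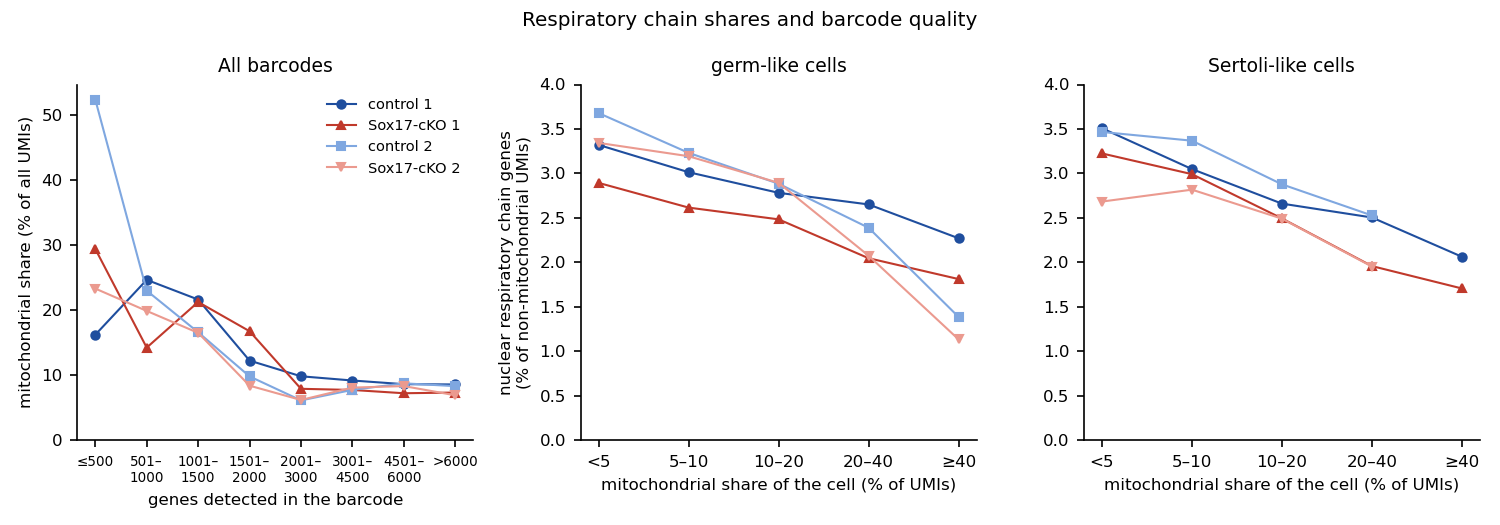
Mitochondrial share (% of all UMIs) of all barcodes by the number of genes detected, and nuclear respiratory chain share (% of non-mitochondrial UMIs) of germ- and Sertoli-like cells by the mitochondrial share of the cell. Lines are libraries; germ-like cells fall from 2.89% to 3.68% at the left to 1.13% to 2.27% at the right, and groups of few cells are not drawn.

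Between genotypes, no member passed the test in the 4 classes compared, in the fit without a block for the library number. With that block, 4 of 91 members were called lower in RT-like cells (*mt-Co1*, *mt-Co2*, *mt-Nd3* and *mt-Cytb*) and 0 higher, beside 2.07% and 1.97% of all genes in that fit, and 0 members were called in the other classes. With 2 libraries a group, a call that misses the threshold does not show that a member did not differ. In RT-like cells 0 of 91 members were called, beside 0.0882% of all genes; in Sertoli-like cells 0 of 99, beside 0.0%; in germ-like cells 0 of 98, beside 0.0%; and in interstitial-like cells 0 of 100, beside 0.0%. At an unadjusted p under 0.05 there were 0, 2, 2 and 0 members in the same order with edgeR, beside 5.75%, 0.722%, 0.181% and 0.409% of all genes. With DESeq2 there were 0, 2, 1 and 0, beside 2.5%, 0.505%, 0.132% and 0.226%. The 11 members that the filter on low counts left out in RT-like cells include *Cox7a1* and *Cox7b2*.

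The members with an unadjusted p under 0.05 were *Ndufb2*, a complex I subunit, and *mt-Nd3* in Sertoli-like cells, with log2 differences of -0.68 ± 0.27 and -0.78 ± 0.32, and *Ndufb2* and *Atp5k*, a small subunit of the ATP synthase, in germ-like cells, with -0.61 ± 0.24 and -0.65 ± 0.25 (SE). In RT-like cells the smallest p among the members was that of *Cox6b2*, with a log2 difference of 0.82 ± 0.37 (edgeR adjusted p = 0.885). The mitochondrial share of RT-like cells was 7.96%, 8.33%, 5.13% and 7.39%, a difference of -1.89 points (exact permutation p = 0.33, the smallest that 2 against 2 libraries can give), and in the libraries numbered 1 and 2 alone it was -2.83 and -0.944 points. Without *Sox17*-cKO 1, which had 33 RT-like cells, it was -0.756 points. In Sertoli-like cells it differed by -2.29 points (exact permutation p = 0.667), in germ-like cells by 0.87 points (exact permutation p = 0.33) and in interstitial-like cells by -0.47 points (exact permutation p = 0.667). The germ-like difference turned to -0.0760 points with no upper limit on genes, -0.448 under 10% mitochondrial UMIs, -0.385 without the clusters of high mitochondrial share and -0.249 as a median over cells. The interstitial-like difference was -0.00902 points without *Sox17*-cKO 1 and -0.927 without *Sox17*-cKO 2. Without *Sox17*-cKO 2 the difference in Sertoli-like cells was 0.313 points, and in the libraries numbered 1 and 2 alone it was -0.198 and -4.38 points. It was -3.53 points as a median over cells, -3.23 without the clusters of high mitochondrial share and -2.47 with no upper limit on genes, each with both *Sox17*-cKO libraries below both controls (exact permutation p = 0.33). The nuclear share of RT-like cells was 3.28%, 3.24%, 3.31% and 3.21%. In germ-like cells the nuclear share differed by -0.369 and -0.103 points in the libraries numbered 1 and 2 alone. In Sertoli-like cells it differed by -0.0851 and -0.408 points, and in interstitial-like cells by -0.159 and 0.00288 points. These differences in nuclear share were not tested.

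Another split ran along the library number, which is also the split between Cell Ranger 6.0.2 (libraries numbered 1) and 6.1.2 (numbered 2). A member was counted where both libraries of one number were at least 1.5-fold above both of the other, among genes with 10 or more UMIs in each library. In germ-like cells 5 of 98 members were higher in the libraries numbered 2 (3.95% of all genes) and 3 lower (7.44%). In Sertoli-like cells 6 of 98 were higher (3.09%) and 10 lower (6.1%), in interstitial-like cells 4 of 100 (3.57%) and 10 (5.72%), and in RT-like cells 3 of 85 (2.29%) and 7 (4.28%). *Cox6a1* and *Cox6b1* were higher in the libraries numbered 2, and *Ndufs5* lower, in all 4 classes. *Cox6b1* was at 499, 891, 423 and 1071 CPM in germ-like cells and at 420, 725, 421 and 838 in interstitial-like cells. *Ndufs5* was at 391, 220, 337 and 178 in germ-like cells and at 225, 104, 209 and 88.1 in interstitial-like cells, and 54.5% of its end words occur in another gene. Each genotype has 1 library of each number, and the part of the software, the capture or the animals in this split cannot be told apart.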

How the data were processed

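Cells of the rete testis and adjacent tubules were profiled by 3′ single-cell RNA-seq in 4 libraries. The deposited matrices hold raw UMI counts per gene and barcode, which the authors made with Cell Ranger 6.0.2 or 6.1.2 (submitters' processing notes) on mm10. The labels give kit version 3, and the methods another version. The study's limit of under 1% mitochondrial UMIs was not applied, since 212 of 22567 retained cells meet it. No doublet caller was run, and the limit of 4500 genes was the only guard.

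Cells were integrated and clustered with Seurat 5.3.0 (R 4.3.3; 2000 variable genes without the members and pathway genes, 20 components, resolution 0.4) and named from fixed markers. UMIs summed per library and class were tested with edgeR 4.0.16 (TMM, filterByExpr, Benjamini-Hochberg over all genes, 0.05), and shares with exact two-sided permutation tests in SciPy 1.17.1. DESeq2 1.42.0 was an alternative. The SE of an edgeR log2 difference was derived as its absolute value divided by the square root of the F statistic. The fits were tested on simulated data, where those between genotypes left most of the smaller changes uncalled. Those between classes, apart from interstitial- against Sertoli-like cells, left most of the smallest changes uncalled too. Levels are CPM (UMIs per 1000000) of all UMIs for mt genes and of non-mitochondrial UMIs for nuclear genes. The study gives the libraries of a genotype as independent biological replicates and its controls as littermates, without saying which litters entered which library. The members and lists were chosen with earlier results of these data known. Named were the mt genes, paired forms, X-linked members, in each test at most 5 rising and 5 falling members by adjusted p, and pathway genes past the threshold. Others, such as cluster values and members differing by library number, were chosen after their values were seen.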

Additional observations from a re-analysis of the deposited data

Results flagged for a closer look

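The mitochondrial share of RT-like cells differed by -1.89 percentage points between *Sox17*-cKO and control libraries, with both *Sox17*-cKO libraries below both controls, and that of germ-like cells by 0.866 points, with both *Sox17*-cKO libraries above both controls. The classes moved in opposite directions, which is what set them apart, and the difference between the classes was not tested. Germ-like cells of cluster 6 made up 28.5% and 11.1% of the class in the *Sox17*-cKO libraries and 14.7% and 3.79% in the controls, and without the clusters of high mitochondrial share the germ-like difference was -0.385 points. In RT-like cells the difference was -0.756 points without *Sox17*-cKO 1, -0.850 under 10% mitochondrial UMIs (exact permutation p = 0.667), -1.19 with no upper limit on genes (exact permutation p = 0.667) and -0.813 as a median over cells (exact permutation p = 1).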

How the results depend on the processing

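Of 207 values recomputed for the counts and shares, 198 kept their direction and side. That tally does not cover the split of a count into higher and lower members, which turned in some comparisons. With no upper limit on genes, more members were higher than lower in spermatocyte- and RT-like cells, unlike in the main fits. On plain CPM the germ- against Sertoli-like split turned too, from 25 higher and 45 lower to 44 and 29. With the replicate number as a block, 4 members were called lower in RT-like cells of *Sox17*-cKO libraries (*mt-Co1*, *mt-Co2*, *mt-Nd3* and *mt-Cytb*) in place of 0. The other 3 classes stayed at 0 under the block, and same-numbered libraries share a Cell Ranger version, while no source ties the littermates used as controls to a number (correlations of deviations 0.50 to 0.62, 2 pairs). On plain CPM in all 4 libraries, a count added after the data were seen, 69 members differed between RT- and Sertoli-like cells (44 higher, 25 lower) in place of 45. Under 10% mitochondrial UMIs, a limit set on the quantity compared, 25 members were called between RT- and Sertoli-like cells, the germ-like minus Sertoli-like share was 0.920, and the log2 differences reversed for *mt-Atp6* (0.019), *mt-Nd3* (0.026) and *mt-Nd4* (0.039) in germ-like, *mt-Nd3* (0.079) in interstitial-like, and *mt-Nd3* (0.46), *mt-Nd4l* (0.29), *mt-Nd4* (0.16), *mt-Nd5* (0.048) and *mt-Cytb* (0.10) in RT-like cells. The genotype difference in the germ-like share was -0.0760 with no upper limit on genes, -0.448 under 10%, -0.385 without the clusters of high share and -0.249 as a median over cells. In Sertoli-like cells, leaving out 1 library gave -4.89 to 0.313. With no upper limit on genes, the log2 difference of *Atp5g2* between spermatocyte- and spermatogonia-like cells reversed to 0.12. For named members, 1599 values were alike, 97 lost the call and 10 reversed. Beyond these settings the cause was not tested. Genes called between genotypes in RT-like cells numbered 6, all lower, and under the block 134 higher and 141 lower of 6799 tested. The 12 Leydig-like cells of control 1 and 33 RT-like cells of *Sox17*-cKO 1 limit precision.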
